A study of Rattus norvegicus with 12 samples.

Results

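Matrix metalloproteinases are zinc-dependent enzymes that cut proteins of the extracellular matrix, cell-surface receptors and other proteases. The 10 genes described here, Mmp2, Mmp3, Mmp9, Mmp12, Mmp13, Mmp14, Mmp15, Mmp16, Mmp17 and Mmp24, were taken from the table of raw read counts by their symbols, and they are 10 of its 31177 rows. The study sequenced RNA from brain tissue of 3 groups with 4 libraries each: AD-HFD, a model of Alzheimer's disease combined with a high-fat diet, AD, the same kind of model without that diet, and Sham, the control group. The labels give neither brain region, strain, sex, age, genotype nor length of feeding, nor what induces the model, and a diet group without the model was not analysed here. The animals are called mice in the labels, whereas the organism field gives Rattus norvegicus and the table carries rat gene identifiers, so the genes are treated as rat genes. Each library is named by its group and replicate number, and the labels do not say that each came from a separate animal, so the p-values measure only the spread between these samples.

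Most metalloproteinases are made as inactive proenzymes whose propeptide blocks the catalytic zinc, and they are switched on when other proteases remove that propeptide. One branch of the family is secreted and includes the gelatinases (Mmp2, Mmp9), a stromelysin (Mmp3), the macrophage elastase (Mmp12) and a collagenase (Mmp13). The other branch is held on the cell surface, by a transmembrane segment in Mmp14, Mmp15, Mmp16 and Mmp24 and by a lipid anchor in Mmp17. In the brain these enzymes are known for opening the basement membrane of vessels, for remodelling the matrix around synapses and for shedding surface proteins, and the tissue inhibitors encoded by the Timp genes hold them in check.

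Library totals ran from 26668974 to 35351792 counts, and values are given as CPM, the counts of a gene relative to the TMM-scaled count total of the tested rows, always in the order of replicates 1 to 4. Differences are log2 fold changes from edgeR's quasi-likelihood test on all 12 libraries, with standard errors (SE), 4 libraries per group and Benjamini-Hochberg adjustment over the 18850 rows tested, and a gene is called at an adjusted p under 0.05. All 10 members passed the filter on low counts, but Mmp3, Mmp12 and Mmp13 did so through the AD-HFD libraries, where they are high, so a difference in these genes was partly built into the selection. The tissue label was met in each library by the 8 general neuron markers, whose summed level was 1664 to 7255 CPM in AD-HFD, 5701 to 6476 CPM in AD and 8105 to 10439 CPM in Sham. Several libraries stood apart within their group. The 7 cerebral cortex markers summed to 1631 CPM in AD-3, against 139 to 325 CPM in the other AD libraries, and to 1954 CPM in AD-HFD-3, against 478 to 770 CPM in the other AD-HFD libraries. The AD-3 sum came mostly from Slc17a7 and Nrn1, which reached 828 and 593 CPM in AD. Thalamus markers summed to 642 to 1958 CPM in the AD libraries other than AD-3, to 138 CPM in AD-3 and to at most 195 CPM in any AD-HFD or Sham library. Hypothalamus markers, of which 4 of 9 were called higher in AD against Sham, summed to 1883 CPM in AD-4, against 16.9 to 117 CPM in the other AD libraries, and to 46.8 to 165 CPM in AD-HFD and 2.69 to 6.23 CPM in Sham. Of all tested rows, 6.23% were called in AD against Sham. Choroid plexus markers were high in AD-HFD-1, AD-HFD-2, Sham-2 and Sham-3, and red blood cell markers were highest in AD-HFD-4 at 4207 CPM.

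In AD-HFD against Sham, 5 of the 10 metalloproteinases rose (Mmp3, Mmp9, Mmp12, Mmp13 and Mmp14) and 2 fell (Mmp17 and Mmp24). Over all tested rows 32.7% were called in this comparison, 19.7% higher and 12.9% lower. In AD against Sham 1 member was called, Mmp17, which fell, where 6.23% of rows were called in either direction and 3.16% lower. In AD-HFD against AD no member was called, and neither were nearly all other genes (0.0106% of rows). The 5 secreted members had median log2 fold changes of 4.72, 1.83 and 3.14 in these comparisons, in the order just given. Those of the 5 membrane-bound members were -0.43, -0.12 and 0.10, and those of all tested rows were 0.03, 0.06 and 0.04. Mmp3, Mmp12 and Mmp13 passed the filter on low counts through the AD-HFD libraries. In the comparisons with AD-HFD, their differences and the secreted medians were thus partly built into the selection and are a description only. AD-HFD and AD share the Sham libraries as their control, so the comparisons against Sham are not independent of each other.

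**Figure D1:**
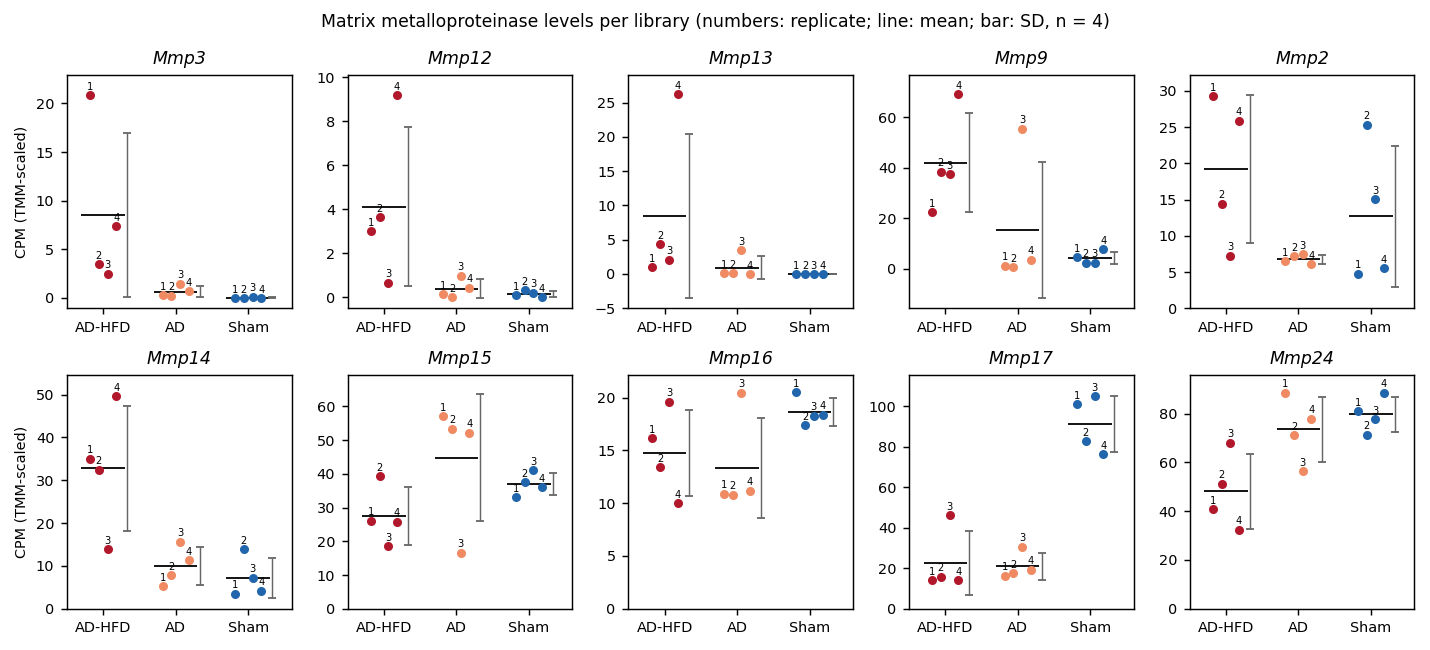
Level of each metalloproteinase (CPM, linear axes that include 0) in the 12 libraries, with AD-HFD, AD and Sham from left to right, points numbered by replicate, lines for group means and bars for the SD (n = 4). Mmp3, Mmp9, Mmp12, Mmp13 and Mmp14 have all AD-HFD points above each Sham point, Mmp17 has all AD-HFD and AD points below each Sham point, and AD-3 stands apart from the other AD points in Mmp9, Mmp13, Mmp15 and Mmp16.

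Mmp3, Mmp12 and Mmp13 lie on rat chromosome 8, in a run of 10 neighbouring protein-coding genes that are all metalloproteinases (in order Mmp13, Mmp12, Mmp1b, Mmp3, Mmp1, Mmp10, Mmp8, Mmp27, Mmp20 and Mmp7, by RefSeq on GRCr8). Of the 10 members, 5 have a promoter in the RefSeq table used here (Mmp3, Mmp12, Mmp13, Mmp15 and Mmp24), each covering 250 bases before to 50 after the start of the gene. The promoters were searched on both strands for TGANTCA, the site of the AP-1 factors (dimers of Fos and Jun proteins), and, after the sequences had been seen, for TATAAA, the TATA box. The stretches from position -120 to -1 are shown because the 3 secreted and the 2 membrane-bound members with a promoter differ in these letters, with the motifs in capitals, 5′ to 3′ on the strand of the gene.
Mmp3 (chr8:12925161-12925280, plus strand): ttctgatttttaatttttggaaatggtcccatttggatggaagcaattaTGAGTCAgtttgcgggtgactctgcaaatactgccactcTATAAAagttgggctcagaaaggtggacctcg
Mmp12 (chr8:12866532-12866651, plus strand): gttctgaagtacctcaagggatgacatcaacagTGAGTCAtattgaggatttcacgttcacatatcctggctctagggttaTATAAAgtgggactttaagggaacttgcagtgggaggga
Mmp13 (chr8:12782709-12782828, plus strand): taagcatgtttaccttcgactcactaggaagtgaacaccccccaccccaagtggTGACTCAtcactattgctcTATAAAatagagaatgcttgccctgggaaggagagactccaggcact
Mmp15 (chr19:9691001-9691120, minus strand): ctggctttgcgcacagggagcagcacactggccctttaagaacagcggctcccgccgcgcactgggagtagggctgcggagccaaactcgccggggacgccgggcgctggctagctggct
Mmp24 (chr3:164739106-164739225, plus strand): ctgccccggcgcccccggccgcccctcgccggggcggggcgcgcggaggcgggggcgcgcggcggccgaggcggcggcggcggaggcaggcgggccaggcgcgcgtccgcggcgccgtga

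The AP-1 letters stood at -71 to -65 in Mmp3, -87 to -81 in Mmp12 and -66 to -60 in Mmp13, and TATAAA followed at -32 to -27, -39 to -34 and -47 to -42. The promoters of Mmp15 and Mmp24 held neither motif in the window of 300 bases and were rich in runs of G and C. Of all 33469 promoters in the table, 7.33% held TGANTCA and 14.2% held TATAAA. Of 12 other metalloproteinases with a promoter, 4 held TGANTCA (Mmp1, Mmp7, Mmp10 and Mmp20). A match is a description of the letters and does not show that a factor binds there.

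Mmp3 (ENSRNOG00000032626), a stromelysin that cuts proteoglycans, laminin and fibronectin and activates other proenzymes of the family, had 20.8, 3.47, 2.50 and 7.39 CPM in AD-HFD, 0.277, 0.233, 1.45 and 0.689 CPM in AD, and 0, 0, 0.136 and 0 CPM in Sham. Each AD-HFD library was above each AD library, and each AD library was above each Sham library. The gene rose in AD-HFD against Sham with a log2 fold change of 7.88 ± 1.10 (adjusted p = 0.00137). The Sham level rests on 4 counts in all, which come from Sham-3, so the size of the fold is poorly fixed. It was 6.94 without AD-HFD-1 and 11.05 as fitted without Sham-3, where the remaining Sham libraries are all at 0 and the fitted value is no bound. The log2 fold change was 4.21 ± 1.45 for AD relative to Sham (adjusted p = 0.0920; 0.0488 without AD-HFD-1), which was not called. For AD-HFD relative to AD it was 3.68 ± 0.716 (adjusted p = 0.0605), also not called.

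Mmp12 (ENSRNOG00000030187), the elastase of macrophages, had 2.99, 3.63, 0.657 and 9.18 CPM in AD-HFD, 0.139, 0, 0.985 and 0.435 CPM in AD, and 0.0876, 0.320, 0.204 and 0 CPM in Sham. The AD-HFD libraries were all above the Sham libraries, AD-HFD-3 was within the range of AD, and AD overlapped Sham. It rose in AD-HFD against Sham with a log2 fold change of 4.72 ± 0.954 (adjusted p = 0.00481), or 3.96 without AD-HFD-4, the highest library. Values not called were 3.38 ± 0.825 for AD-HFD relative to AD (adjusted p = 0.0605) and 1.33 ± 1.24 for AD relative to Sham (adjusted p = 0.550). The 7 border macrophage markers (Cd163, Mrc1, Lyve1, F13a1, Ms4a7, Pf4 and Stab1) were all called higher in AD-HFD against Sham and 3 of them in AD against Sham. Of all tested rows, 19.7% were called higher in AD-HFD against Sham and 6.23% in either direction in AD against Sham. The values below are those of the 7 markers. Their summed level was 29.3 to 164 CPM in AD-HFD, 22.0 to 34.6 CPM in AD and 4.73 to 11.7 CPM in Sham, with AD-HFD-4 the highest, and of the 7 markers Ms4a7 alone was at 0 in a library (Sham-3). Their part in the Mmp12 result was not tested. In bulk tissue, a change in the number of cells of a type and a change in RNA per cell cannot be told apart.

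Mmp13 (ENSRNOG00000008478), a collagenase, had 0.953, 4.37, 2.09 and 26.2 CPM in AD-HFD, 0.139, 0.117, 3.45 and 0 CPM in AD, and no count in any Sham library. The AD-HFD values span a wide range led by AD-HFD-4, and AD-3 holds most of the AD counts. The AD-HFD libraries held 1021 counts against 0 in Sham, a level at least 343-fold higher when 3 counts over the group stand for the Sham floor (adjusted p = 0.0202). Of these counts 788 are from AD-HFD-4, and without that library the bound is at least 103-fold. The call was lost when AD-HFD-3 and AD-HFD-4 were both left out (adjusted p = 0.0520). The AD libraries held 120 counts against 0 in Sham, at least 40.5-fold higher on the same floor, and the adjusted p was 0.258. AD-3 holds 112 of them, and without it the bound is at least 3.67-fold. The log2 difference of AD-HFD from AD was 3.14 ± 1.32 and was not called (adjusted p = 0.148). It was 1.38 without AD-HFD-4, and 6.51 without AD-3, where it was called (adjusted p = 0.0118).

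Mmp9 (ENSRNOG00000017539), the gelatinase known for its release by neutrophils and for cutting collagen of vessel basement membranes, had 22.6, 38.6, 37.5 and 69.3 CPM in AD-HFD, 1.28, 0.613, 55.6 and 3.70 CPM in AD, and 4.67, 2.40, 2.48 and 7.73 CPM in Sham. All AD-HFD libraries were above all Sham libraries, and within AD a single library, AD-3, was at the AD-HFD level while AD-1 and AD-2 were below each Sham library. Mmp9 rose in AD-HFD against Sham by 3.28 ± 1.12 on the log2 scale (adjusted p = 0.0421). That call was lost when any 1 of Sham-1 to Sham-4, AD-HFD-1, AD-HFD-2 or AD-HFD-4 was left out, although the log2 fold change stayed between 2.93 and 3.71 over all 12 such fits (adjusted p from 0.00167 to 0.1002). For AD relative to Sham it was 1.83 ± 1.08 (adjusted p = 0.329), which became -1.24 without AD-3. AD-HFD against AD gave 1.45 ± 1.03 (adjusted p = 0.355), which became 4.52 (adjusted p = 0.00165) without AD-3.

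Over all tested rows, 19.7% were called higher in AD-HFD against Sham and 6.23% in either direction in AD against Sham. Of 9 neutrophil markers, 6 were tested, and all 6 were called higher in AD-HFD against Sham and 2 in AD against Sham. Their summed level was 18.5 to 204 CPM in AD-HFD, 20.6 to 44.5 CPM in AD and 2.51 to 4.21 CPM in Sham. Among the granule genes of this list Ltf was at 0 in all 12 libraries, and Elane and Mpo reached 0.246 and 0.646 CPM at most, both in AD-3. Ngp and Camp reached 5.89 and 1.56 CPM at most, both in AD-HFD-4. Within AD, AD-3 had both the highest summed marker level (44.5 CPM) and the highest Mmp9. Within AD-HFD, the library with the lowest marker sum, AD-HFD-3 at 18.5 CPM, still had 37.5 CPM of Mmp9. The part of these cells in the Mmp9 result was not tested.

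Mmp2 (ENSRNOG00000016695), the other gelatinase, had 29.3, 14.4, 7.28 and 25.9 CPM in AD-HFD, 6.51, 7.18, 7.45 and 6.09 CPM in AD, and 4.76, 25.3, 15.1 and 5.52 CPM in Sham. AD-HFD and Sham overlapped widely, and the AD libraries differed least among themselves. No log2 difference was called: 0.60 ± 0.517 for AD-HFD relative to Sham (adjusted p = 0.385), 1.49 ± 0.531 for AD-HFD relative to AD (adjusted p = 0.0940) and -0.89 ± 0.528 for AD relative to Sham (adjusted p = 0.329). The 9 choroid plexus markers varied over the same libraries. Their summed level was 23.2 to 10611 CPM in AD-HFD, 8.34 to 23.7 CPM in AD and 3.10 to 4751 CPM in Sham, and AD-HFD-1 (10611 CPM of markers), Sham-2 (4751 CPM) and Sham-3 (4614 CPM) were among the 5 libraries highest in Mmp2. AD-HFD-4 had 25.9 CPM of Mmp2 with 23.2 CPM of choroid plexus markers. None of the 9 choroid plexus markers was called by edgeR in any comparison. The 5 libraries highest in Mmp2 were also the 5 highest in summed leptomeningeal fibroblast markers. These sums were 543 CPM in AD-HFD-1, 1083 CPM in AD-HFD-4, 581 CPM in Sham-2, 351 CPM in Sham-3 and 491 CPM in AD-HFD-2. The high Sham sums rest largely on Igf2, which alone ran from 26.7 to 396 CPM in Sham. Pdgfra, the next highest marker there, reached 83.1 CPM, and Col1a1, Dcn and Lum at most 12.8, 27.1 and 6.68 CPM. The match of the 5 libraries thus depends on this 1 gene in Sham. The part of either marker list in the Mmp2 values was not tested.

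**Figure D2:**
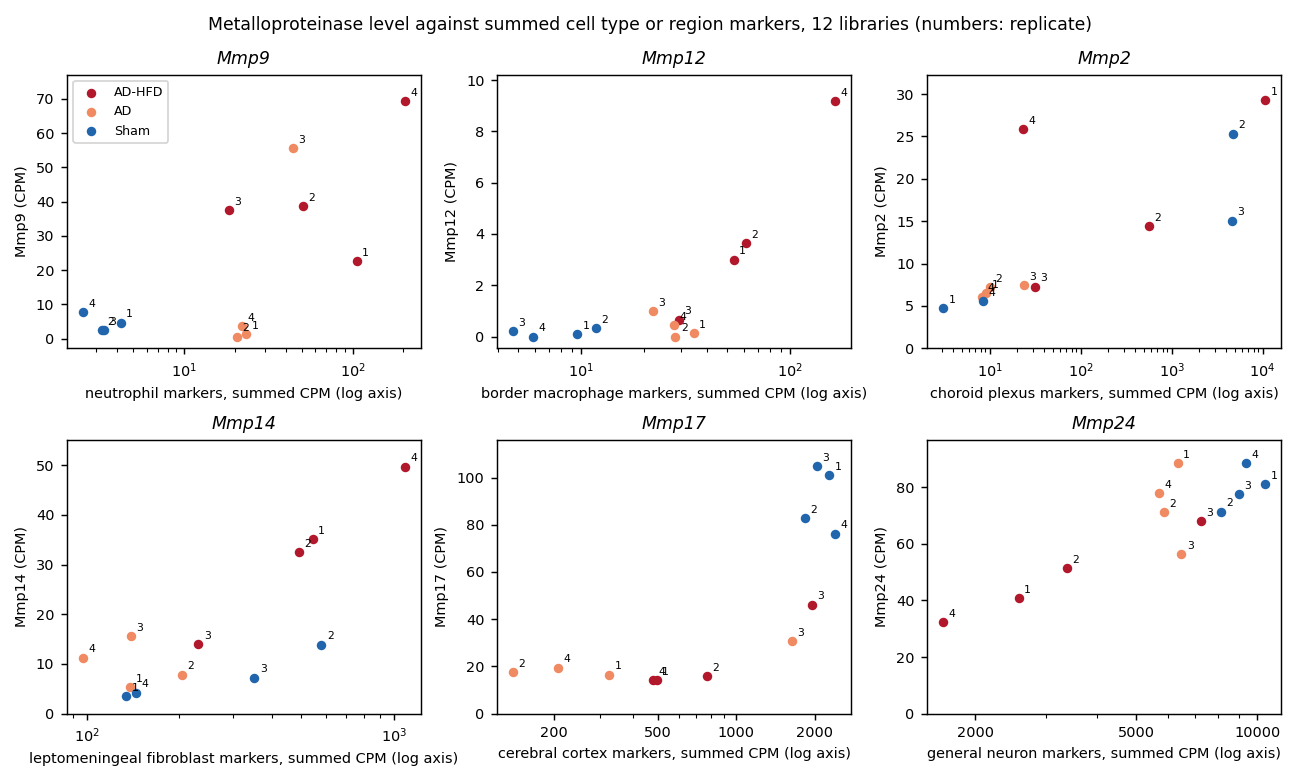
Level of 6 metalloproteinases (CPM, vertical axis) against the summed CPM of a marker list (horizontal log axis) in the 12 libraries, coloured by group and numbered by replicate. The libraries richest in choroid plexus markers are among those high in Mmp2. AD-HFD-3 and AD-3 lie closest to Sham in the summed cerebral cortex markers and below all Sham libraries in Mmp17. Of that list, Neurod6, Tbr1, Emx1 and Lmo4 were lower in every AD-HFD and AD library than in any Sham library. Mmp24 is lowest where neuron markers are lowest, while within AD the library highest in neuron markers, AD-3, is lowest in Mmp24.

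Mmp14 (ENSRNOG00000010947), the membrane-type enzyme that activates the Mmp2 proenzyme together with Timp2, had 35.1, 32.5, 13.9 and 49.7 CPM in AD-HFD, 5.33, 7.82, 15.6 and 11.3 CPM in AD, and 3.53, 13.9, 7.21 and 4.22 CPM in Sham. AD-HFD lay above Sham without overlap, by a narrow margin between AD-HFD-3 and Sham-2, and AD overlapped both. Mmp14 rose in AD-HFD against Sham by 2.18 ± 0.497 on the log2 scale (adjusted p = 0.00872) and kept its call in every alternative fit. Differences not called were 1.71 ± 0.487 for AD-HFD relative to AD (adjusted p = 0.0643) and 0.47 ± 0.487 for AD relative to Sham (adjusted p = 0.593). Of 9 leptomeningeal fibroblast markers 7 were called higher in AD-HFD against Sham, where 19.7% of all rows were, and 0 in AD against Sham. Their sum was 231 to 1083 CPM in AD-HFD, 97.4 to 205 CPM in AD and 135 to 581 CPM in Sham, with none of the 9 at 0 in any library. Igf2 alone reached 396 CPM in Sham and 334 CPM in AD-HFD. AD-HFD-4 was highest in both the fibroblast sum and Mmp14, and the part of these cells in the result was not tested.

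Mmp17 (ENSRNOG00000023643), the member tied to the membrane by a glycolipid anchor, was the 1 metalloproteinase called in both comparisons against Sham. It had 14.2, 15.9, 46.1 and 14.1 CPM in AD-HFD, 16.4, 17.6, 30.7 and 19.4 CPM in AD, and 101, 82.7, 105 and 76.3 CPM in Sham. All 8 AD-HFD and AD libraries were below all 4 Sham libraries, and AD-HFD overlapped AD. The gene averaged 22.6 ± 15.7 CPM in AD-HFD, 21.0 ± 6.59 CPM in AD and 91.2 ± 13.9 CPM in Sham (SD, n = 4 each). It fell by 2.01 ± 0.378 on the log2 scale in AD-HFD against Sham (adjusted p = 0.00423), or by 2.63 without AD-HFD-3. It fell by 2.12 ± 0.379 in AD against Sham (adjusted p = 0.0106), a call kept when any 1 library was left out. AD-HFD against AD gave 0.10 ± 0.368 (adjusted p = 0.871), so no difference between these groups was detectable.

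The libraries highest in Mmp17 within their group, AD-HFD-3 and AD-3, were also the highest there in cerebral cortex markers (Slc17a7, Neurod6, Tbr1, Cux2, Emx1, Lmo4 and Nrn1). The marker sum was 478 to 1954 CPM in AD-HFD, 139 to 1631 CPM in AD and 1838 to 2390 CPM in Sham. Of the 7 markers, 1 was called lower in AD-HFD against Sham and 2 in AD against Sham, where 12.9% and 3.16% of all rows were. Emx1 alone was at 0 in a library (AD-4). AD-HFD-3 reached the Sham range in the sum of these markers and had 46.1 CPM of Mmp17, below the lowest Sham value of 76.3 CPM. The single markers differed in this. The 4 markers Neurod6, Tbr1, Emx1 and Lmo4 reached at most 69.9, 46.1, 17.6 and 198 CPM in AD-HFD, below their Sham minima of 84.8, 61.8, 18.6 and 247 CPM. Slc17a7, Cux2 and Nrn1 overlapped between AD-HFD and Sham. In AD these 4 markers reached at most 8.46, 21.0, 18.2 and 124 CPM, also below their Sham minima. Slc17a7 reached 828 CPM in AD, below its Sham minimum of 1223 CPM. Cux2 overlapped between AD and Sham, and Nrn1 reached 593 CPM in AD, above its Sham maximum of 174 CPM. With AD-3 as the only AD library, assumed to vary like the libraries of the other groups, the log2 difference from Sham was -1.58 (adjusted p = 0.220), and a call lost with 1 library says little. The part of the tissue sampled in the Mmp17 result was not tested.

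Mmp24 (ENSRNOG00000047028), a transmembrane member known for its expression in neurons and, in mice, for cleaving the amyloid precursor protein, had 40.8, 51.3, 68.1 and 32.4 CPM in AD-HFD, 88.5, 71.2, 56.4 and 78.0 CPM in AD, and 81.1, 71.3, 77.7 and 88.5 CPM in Sham. AD-HFD lay below Sham without overlap, and AD overlapped both. It fell by 0.73 ± 0.215 on the log2 scale in AD-HFD against Sham (adjusted p = 0.0245), with the call lost when Sham-1, Sham-4, AD-HFD-1 or AD-HFD-4 was left out (adjusted p up to 0.0673). The other differences were -0.61 ± 0.215 for AD-HFD relative to AD (adjusted p = 0.0928) and -0.12 ± 0.214 for AD relative to Sham (adjusted p = 0.781). Of the 8 general neuron markers 5 were also called lower in AD-HFD against Sham, where 12.9% of all rows were. The median log2 fold change was -1.25 over the list, and none of the markers was at 0 in any library. Within AD-HFD the order of the libraries was the same for Mmp24 and the neuron sum, from AD-HFD-3 with 7255 CPM of markers down to AD-HFD-4 with 1664 CPM. Within AD the order differed, with AD-3 highest in the neuron sum (6476 CPM) and lowest in Mmp24 (56.4 CPM). All AD neuron sums (5701 to 6476 CPM) were below all Sham sums (8105 to 10439 CPM), while AD and Sham overlapped in Mmp24. The part of the neuron content in the Mmp24 result was not tested.

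Mmp15 (ENSRNOG00000012622) and Mmp16 (ENSRNOG00000005708), transmembrane relatives of Mmp14, were called in no comparison. Mmp15 had 26.1, 39.3, 18.5 and 25.8 CPM in AD-HFD, 57.1, 53.3, 16.7 and 52.1 CPM in AD, and 33.1, 37.4, 41.1 and 36.1 CPM in Sham. Except for AD-3, the AD libraries were above all others, whereas AD-3 was the lowest of all 12. The log2 differences of Mmp15 were -0.43 ± 0.329 for AD-HFD relative to Sham (adjusted p = 0.330), 0.28 ± 0.328 for AD relative to Sham (adjusted p = 0.644) and -0.71 ± 0.330 for AD-HFD relative to AD (adjusted p = 0.170). Without AD-3 the last of these was -0.98 and was called (adjusted p = 0.00726).

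Mmp16 had 16.1, 13.4, 19.6 and 9.98 CPM in AD-HFD, 10.9, 10.8, 20.5 and 11.2 CPM in AD, and 20.5, 17.4, 18.3 and 18.4 CPM in Sham. The AD libraries other than AD-3 were below all Sham libraries, and AD-3 was near the top of the Sham range. Its log2 differences were -0.33 ± 0.250 for AD-HFD relative to Sham (adjusted p = 0.317), -0.48 ± 0.251 for AD relative to Sham (adjusted p = 0.268) and 0.15 ± 0.251 for AD-HFD relative to AD (adjusted p = 0.715). Without AD-3 the AD against Sham difference was -0.77 and was called (adjusted p = 0.0357).

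**Figure D3:**
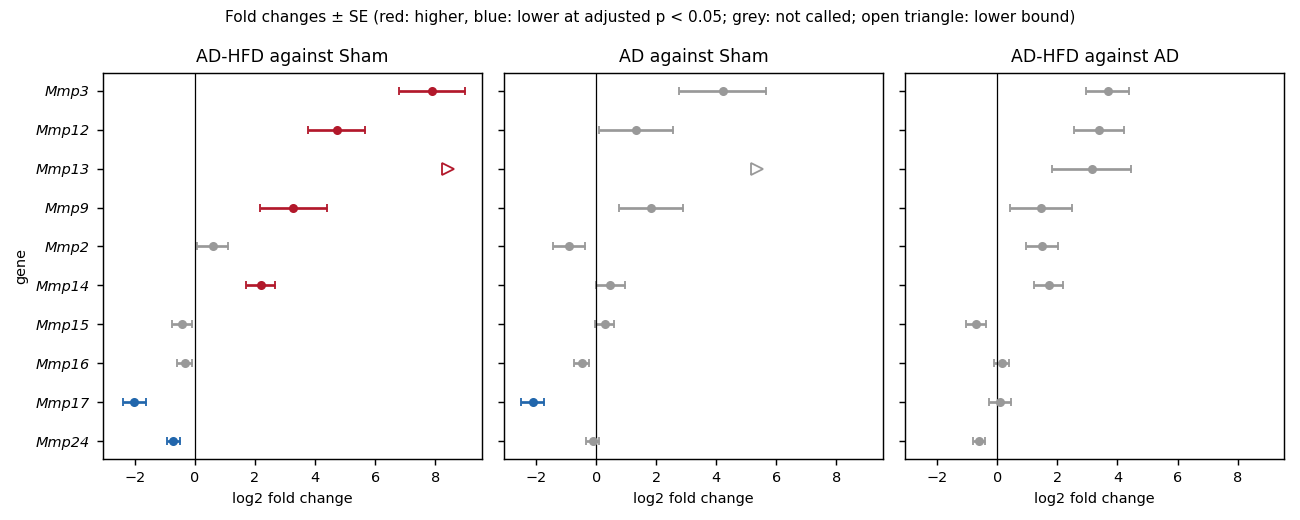
Log2 fold change with SE (horizontal axis) of the 10 metalloproteinases in AD-HFD against Sham, AD against Sham and AD-HFD against AD, in red where called higher, blue where called lower and grey where not called. Open triangles mark lower bounds for Mmp13, which has no Sham count; 7 members are coloured in AD-HFD against Sham, Mmp17 alone in AD against Sham and none in AD-HFD against AD.

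In AD-HFD against Sham the groups of 7 of the 10 members did not overlap, a pattern shown by 35.1% of all tested rows. These are the 7 members called there, and both features come from the same values. Mmp3, Mmp12 and Mmp13 passed the filter on low counts through the AD-HFD libraries, so their part in the counts with AD-HFD is a description only. Groups did not overlap for 2 members in AD against Sham (Mmp3 higher and Mmp17 lower), where 21.6% of rows did so, and for 1 member in AD-HFD against AD (Mmp3 higher), where 5.46% of rows did so. In AD-HFD against AD, 6 members had an unadjusted p under 0.05 (Mmp2, Mmp3, Mmp12, Mmp13 and Mmp14 higher, Mmp24 lower), and 30.5% of all rows did. DESeq2 called 5 of them (Mmp2, Mmp3, Mmp12 and Mmp14 higher, Mmp24 lower) among 17.7% of rows. Leaving out AD-3 gave 7 calls (Mmp3, Mmp9, Mmp12, Mmp13 and Mmp14 higher, Mmp15 and Mmp24 lower) among 30.3% of rows, so the number of metalloproteinases separating the diet group from the model alone depends on that library and on the test.

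Of 15 further metalloproteinase symbols, 12 are in the table and 6 were tested. In AD-HFD against Sham 3 rose: Mmp8, the collagenase of neutrophils, by 6.63 ± 0.927 on the log2 scale (adjusted p = 0.00175; 5.84 without AD-HFD-4), Mmp19, by 4.01 ± 0.664 (adjusted p = 0.00309; 3.25 without AD-HFD-4), and Mmp10, a stromelysin with 214 counts against 0 in Sham and thus at least 71.9-fold higher (adjusted p = 0.00573). Mmp8 also rose in AD against Sham by 4.43 ± 0.943 (adjusted p = 0.0196). The second call was lost without Sham-1, Sham-2 or Sham-4 (adjusted p up to 0.0666). Mmp8 levels were 22.2, 8.45, 3.03 and 43.9 CPM in AD-HFD, 3.53, 3.03, 7.51 and 2.83 CPM in AD, and 0.234, 0.192, 0.340 and 0 CPM in Sham. Of the 10 neighbours on chromosome 8, Mmp3, Mmp8, Mmp10, Mmp12 and Mmp13 were the 5 tested, and all 5 were called higher in AD-HFD against Sham, where 19.7% of all rows were. The grouping was made after their values were seen, and Mmp3, Mmp12 and Mmp13 passed the filter on low counts through the AD-HFD libraries and Mmp10 through 3 of them and AD-3, so the count is a description only. Mmp1, Mmp1b, Mmp20 and Mmp27 had no count in any library, and Mmp7 had 26 counts, all in AD-HFD.

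Among 7 inhibitors of the family, 4 rose in AD-HFD against Sham and 1 in AD against Sham. Of all tested rows, 19.7% rose in AD-HFD against Sham and 6.23% were called in either direction in AD against Sham. Timp1, the inducible inhibitor that binds the Mmp9 proenzyme, had 258, 524, 307 and 1354 CPM in AD-HFD, 6.96, 3.41, 418 and 35.0 CPM in AD, and 0.847, 1.79, 1.12 and 1.84 CPM in Sham. The 3 groups were ordered AD-HFD, AD and Sham apart from AD-3, which was at the AD-HFD level as it was for Mmp9. Timp1 rose by 8.77 ± 1.59 on the log2 scale in AD-HFD against Sham (adjusted p = 0.00393; 8.02 without AD-HFD-4) and by 6.37 ± 1.46 in AD against Sham (adjusted p = 0.0272). Without AD-3 the AD value was 3.43, and the AD call did not survive the loss of any 1 Sham library (adjusted p up to 0.0896). Relative to Sham, AD-HFD libraries were also higher in other inhibitors: A2m, a plasma-type protease trap, rose by 3.24 ± 0.626 (adjusted p = 0.00467), Timp3, which binds to the matrix, by 1.35 ± 0.320 (adjusted p = 0.0102), and Reck, a membrane-anchored inhibitor, by 1.14 ± 0.402 (adjusted p = 0.0469) with overlapping groups and a call lost in 9 of 12 fits that left out 1 library (adjusted p up to 0.183). Timp2 was not called in that comparison, with 0.57 ± 0.207 (adjusted p = 0.0522). Timp4 had 59.3, 66.5, 2.52 and 50.8 CPM in AD, against 9.49 to 12.1 CPM in Sham, and was not called (adjusted p = 0.0975).

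**Figure D4:**
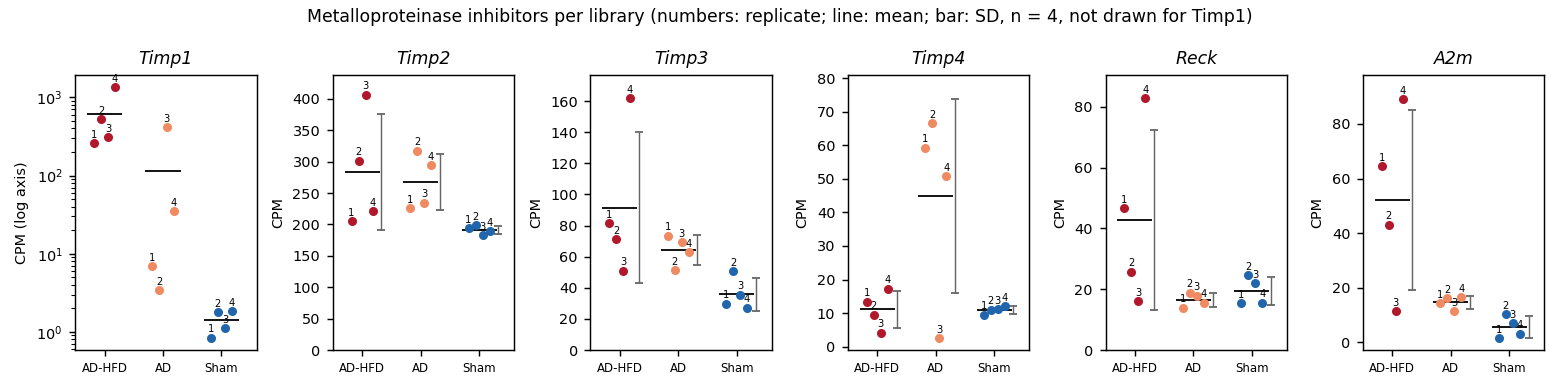
Level of 6 metalloproteinase inhibitors in the 12 libraries (CPM; log axis for Timp1, linear axes otherwise), with AD-HFD, AD and Sham from left to right, lines for group means and bars for the SD (n = 4). All AD-HFD points of Timp1 are above 250 CPM and all Sham points below 2 CPM, while AD-3 is far above the other AD points in Timp1 and far below them in Timp4.

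Genes that act upstream of the family, proteases and Plaur, the urokinase receptor, were called as well. For the counts that follow, 19.7% of all tested rows rose and 12.9% fell in AD-HFD against Sham, and 6.23% were called in AD against Sham. Of 10 tested activators, 7 rose in AD-HFD against Sham and 0 fell, with Plat, the tissue plasminogen activator, at 2.69 ± 0.480 (adjusted p = 0.00369; 2.06 without AD-HFD-4), Plau, the urokinase, at 4.91 ± 1.26 (adjusted p = 0.0142), and Pcsk7, a proprotein convertase, at 1.00 ± 0.214 (adjusted p = 0.00662). The gene of plasminogen itself, Plg, was not called there and averaged 0.225 CPM in AD-HFD and 0.510 CPM in Sham. Of the 10 activators 1 was called for AD relative to Sham: Pcsk5, another convertase, fell by 1.33 ± 0.276 (adjusted p = 0.0193), a call lost without Sham-1 or Sham-3 and without each AD library other than AD-3 (adjusted p up to 0.0688). Of 9 genes known to induce metalloproteinases (cytokines, growth factors and the membrane protein gene Bsg), 6 rose in AD-HFD against Sham. Those with the smallest p were Il1b at 5.49 ± 0.819 (adjusted p = 0.00194), Il6 at 8.53 ± 1.45 (adjusted p = 0.00206) and Lif at 8.77 ± 1.53 (adjusted p = 0.00241; 10.14 without Sham-1), and Il1b and Lif rose in AD against Sham, where neither call survived the loss of any 1 Sham library (adjusted p up to 0.105). Without AD-3 the AD difference of Il1b was 2.56 and was not called (adjusted p = 0.0576), and that of Lif was 4.24 and was called (adjusted p = 0.0185). Of 11 AP-1 and ETS transcription factors, 7 rose and 1 fell in AD-HFD against Sham: Fos rose by 4.30 ± 0.593 (adjusted p = 0.00179) and Jun by 2.68 ± 0.502 (adjusted p = 0.00421), while Etv5 fell by 1.59 ± 0.283 (adjusted p = 0.00366). The count higher was 4 without Sham-1. Relative to Sham, Etv5 was also the 1 gene of that list called in AD, where it fell by 1.46 ± 0.282 (adjusted p = 0.0142; 0.0585 without Sham-1).

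The ADAM and ADAMTS families are related metalloproteases. Of all tested rows, 32.7% were called in AD-HFD against Sham, 19.7% higher and 12.9% lower, and 6.23% in AD against Sham. All 10 ADAM genes listed were called in AD-HFD against Sham, 7 higher and 3 lower, and those with the smallest p were Adam8 at 2.86 ± 0.524 (adjusted p = 0.00401; 2.21 without AD-HFD-4) and Adam17, the sheddase of Tnf, at 1.55 ± 0.322 (adjusted p = 0.00605). The ADAM counts were 3 higher without Sham-1 or Sham-4, 4 higher without Sham-2, Sham-3, AD-HFD-1 or AD-HFD-4, and 1 lower without AD-HFD-1, AD-HFD-2, AD-HFD-4 or Sham-1. Of 9 ADAMTS genes 5 rose in AD-HFD against Sham, and Adamts4 and Adamts1, which cut the proteoglycans of perineuronal nets, also rose in AD against Sham, by 1.86 ± 0.338 (adjusted p = 0.0110) and 3.44 ± 0.851 (adjusted p = 0.0367). The Adamts1 call in AD was lost without AD-4 or any 1 Sham library (adjusted p up to 0.109), and its value was 1.75 without AD-3.

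Genes for matrix proteins that the family cuts were called mainly in AD-HFD against Sham, where 19.7% of all rows rose and 12.9% fell. In AD against Sham 6.23% of all rows were called. Of 10 tested basement membrane genes 8 rose and 0 fell, with Col4a1 at 4.76 ± 0.794 (adjusted p = 0.00313) or 3.79 without AD-HFD-4. In AD 0 were called relative to Sham by edgeR, with 3 at an unadjusted p under 0.05, 1 called by DESeq2 and 3 called without AD-HFD-4. Of 11 genes of the interstitial matrix and perineuronal nets 5 rose and 2 fell in AD-HFD against Sham. Spp1, a matrix protein of activated microglia and macrophages, rose by 8.14 ± 1.14 (adjusted p = 0.00187), while Hapln1, the link protein of perineuronal nets, fell by 1.88 ± 0.470 (adjusted p = 0.0125). Relative to Sham, AD libraries were called for the same 2 genes: Spp1 rose by 6.59 ± 1.07 (adjusted p = 0.00721) and Hapln1 fell by 1.74 ± 0.467 (adjusted p = 0.0480), the Hapln1 call being lost in 9 of 12 fits that left out 1 library (adjusted p up to 0.114). Without Sham-2 the Spp1 values were 9.47 in AD-HFD and 7.96 in AD. Of 7 tested endothelial junction genes 5 rose in AD-HFD relative to Sham. None was called in AD by edgeR, with 1 at an unadjusted p under 0.05 and 1 called by DESeq2. Most vessel cell markers were higher as well. In AD-HFD against Sham 4 of 5 tested endothelial markers and 5 of 8 pericyte and smooth muscle markers were called higher, where 19.7% of all rows were. Others were lower without a call. Rgs5 was at 19.4 to 28.0 CPM in AD-HFD, below the 30.6 to 37.5 CPM of Sham. Vtn averaged 14.0 CPM in AD-HFD and 24.9 CPM in Sham, and Slco1a4 41.2 and 63.6 CPM. Slc2a1 and Tagln reached 703 and 450 CPM in AD-HFD and weigh heavily in the sums below. Cdh5 and Cldn5 are in both the endothelial marker list and the junction list, so these lists are not independent. The endothelial sum was 550 to 1834 CPM in AD-HFD, 335 to 747 CPM in AD and 243 to 286 CPM in Sham, with Cldn5 at 0 in all libraries except AD-HFD-1 and AD-2. The pericyte and smooth muscle sum was 253 to 674 CPM in AD-HFD, 169 to 249 CPM in AD and 145 to 209 CPM in Sham, and the part of these cells in the result was not tested. In AD-HFD against AD, edgeR called 0 of the 90 tested entries of these 10 lists of relatives, inhibitors, activators, regulators and matrix genes. Of the 90, 50 had an unadjusted p under 0.05, DESeq2 called 34 higher and 3 lower, and without AD-3 edgeR called 48 higher and 3 lower.

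As a description of shared pattern, the 3 genes most like each member were found by Pearson's r of log2 CPM over the 12 libraries, which share depth, groups and tissue content. Mmp24 had the closest likeness, with Cnnm1 (r = 0.996), Ypel4 (r = 0.990) and Inpp5j (r = 0.989). Mmp3 was most like Scimp (r = 0.967), Cxcl1 and Malt1 (both r = 0.959), and Mmp9 most like Taf5l (r = 0.980), Il6r (r = 0.978) and Pa2g4 (r = 0.976). Mmp13 was most like Plat (r = 0.978), Uap1 and Afap1 (both r = 0.976), Mmp12 most like Ttc7a (r = 0.976), Ggta1 and Parp3 (both r = 0.973), and Mmp14 most like Tmem123 (r = 0.978), Dab2 (r = 0.977) and Il10rb (r = 0.976). Mmp2 was most like Baiap2l1, Ace (both r = 0.963) and Slc16a12 (r = 0.962). Mmp15 was most like Kifc3 (r = 0.965), Cbs (r = 0.963) and the astrocyte enzyme gene Aldh1l1 (r = 0.961), Mmp16 most like Stard7 (r = 0.961), St6gal2 (r = 0.948) and Pdk1 (r = 0.947), and Mmp17 most like Plcb1 (r = 0.977), Slc26a8 and Casp9 (both r = 0.974). Among the members, the closest pair was Mmp12 and Mmp14 (r = 0.934), and the most opposed pair was Mmp14 and Mmp24 (r = -0.921).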

How the data were processed

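The authors deposited 1 table of raw read counts per gene for the 12 libraries, made, per the labels' protocols, from total RNA extracted with TRIzol and an mRNA library kit. FastQC and Trimmomatic are named per the submitters' processing notes. The aligner, counter, strand setting, build and annotation are not given in the sources used here. Genes that overlap or share reads may be miscounted. Of 31177 rows, 9127 are loci with no Ensembl identifier, with 2.24% to 3.29% of counts per library, and 0 sample columns were left unused. Totals of 26668974 to 35351792 counts set the precision, and low genes such as Mmp3, Mmp12 and Mmp13 carry the largest errors.

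edgeR 4.0.16 (R 4.3.3; filterByExpr, TMM, quasi-likelihood F test, 1 mean per group) was fitted to the counts of all 12 libraries. It was also run on simulated counts built from that fit, with 100 genes changed 2-fold and 100 changed 4-fold in each comparison. Of 2-fold changes it called 9 of 97 in AD against Sham, 7 of 96 in AD-HFD against AD and 12 of 98 in AD-HFD against Sham. Of 4-fold changes it called 70 of 97, 56 of 98 and 63 of 98 in the same order. A gene not called may therefore still differ. The changed genes were a far smaller share than the 32.7% of rows called in AD-HFD against Sham. The adjustment is stricter when few genes change, so these rates do not give the power of that comparison. No pair of replicates agreed within sampling noise. Same-numbered libraries did not deviate together (0 of 12 pairs correlated above 0.1). Alternatives were DESeq2 1.42.0, limma 3.58.1 voom, the legacy edgeR method, other scalings, filters and thresholds, a replicate block, fits to 2 groups, leaving out each library, AD-3 as the only AD library, and leaving out AD-HFD-3 and AD-HFD-4.

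All 10 members are described. From each other list up to 4 of the genes called with the smallest p may be named, and Timp2 and Timp4 were added after their values were seen. Likeness was taken over genes with a mean of at least 1 CPM. The members and lists were chosen with earlier results of these data known. Promoters are RefSeq sequences on GRCr8. Protein motifs were not analysed here. One gene of the cortex marker list is not reported here and is not in its sums.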

Additional observations from a re-analysis of the deposited data

Results flagged for a closer look

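Among 29 sets of 4 libraries tested, 7 had a library far from the others by Dixon's test, which chance does in about 1 in 20 groups. Of these, 4 are AD-3: Mmp9 at 55.6 CPM (other AD libraries 0.613 to 3.70), Mmp13 at 3.45 CPM (0 to 0.139), Mmp15 at 16.7 CPM (52.1 to 57.1) and Mmp16 at 20.5 CPM (10.8 to 11.2). Mmp13 in AD-HFD-4 was at 26.2 CPM, against 0.953 to 4.37 CPM in the other AD-HFD libraries. Mmp17 in AD-HFD-3 was at 46.1 CPM, against 14.1 to 15.9 CPM in the other AD-HFD libraries. Mmp3 in Sham-3 was at 0.136 CPM, against 0 in the other Sham libraries, and rests on 4 counts.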

How the results depend on the processing

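The number of metalloproteinases called in AD-HFD against Sham was 7, and ran from 5 to 7 when 1 library was left out. It was 4 at an adjusted p under 0.01, where 11.5% of all rows were called. In all other alternatives it stayed within 1.5 times the main count. In AD against Sham it was 1, and 1 to 2 when 1 library was left out (2 without AD-3 or without AD-HFD-1), 0 at an adjusted p under 0.01, 2 at one under 0.1 and 3 with DESeq2. In AD-HFD against AD it was 0, and 0 to 7 when 1 library was left out. It was 7 without AD-3 (30.3% of all rows called) and 5 without AD-HFD-3 (27.6% of rows). The count was 5 at an adjusted p under 0.1 (18.2% of rows), 5 with DESeq2 (17.7%) and 2 with AD-HFD-3 and AD-HFD-4 left out (9.56%). With the replicate number as a block the counts were 6, 1 and 0 in these comparisons, the lost call being Mmp24 (adjusted p = 0.0519), and 1 of 12 libraries correlated best with its own number.

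Mmp3, Mmp12, Mmp14 and Mmp17 kept their calls in AD-HFD against Sham under each alternative that tested them at the 0.05 threshold; Mmp12 did not pass the filter of 1 CPM in 4 libraries. Directions changed in uncalled values, or in values whose call was lost, for which the cause was not tested. In AD against Sham, Mmp9 was -0.0937 with voom and ran from -1.24 to 2.26 when 1 library was left out, and with AD-3 as the only AD library, assumed to vary like the other groups, Mmp15 was -1.15 and Mmp16 was 0.13. In AD-HFD against AD with AD-3 alone, Mmp9 was -0.41, Mmp15 was 0.71, Mmp16 was -0.47 and Mmp17 was -0.43. There Mmp17 was also -0.0537 with voom, -0.0220 with the replicate block and -0.48 with AD-HFD-3 and AD-HFD-4 left out. When 1 library was left out, Mmp17 ran from -0.51 to 0.35 and Mmp16 from -0.0206 to 0.43. No scaling moved the median of all genes by over 0.1. Levels under about 1 CPM rest on few counts.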
